A study of Mus musculus with 4 samples.

Results

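The TGF-beta and BMP signalling genes form a set of 38 named genes, chosen by symbol, out of 22869 gene symbols in the deposited tables. Of these, 17 act in the TGF-beta and activin branch, 16 in the BMP branch and 5 were set apart, 4 because they serve both branches and Bmp1 because it is a protease. They were measured by RNA sequencing in primary mouse pancreatic ductal cells of C57BL/6 adults, with 2 libraries labelled control and 2 labelled Hhex knockout. Control cells carried the floxed alleles alone (HhexL/L). Cells labelled knockout carried them with CreER, a Cre that tamoxifen switches on, under the Sox9 promoter (Sox9CreER;HhexL/L). Both groups were cultured for 4 days with 500 nM 4-hydroxytamoxifen, which activates the Cre. Cells with the Cre but intact Hhex are not part of the design, so effects of the Cre and loss of Hhex cannot be told apart. Each library came from cells of mice that had not been induced before isolation, and p-values measure the spread between these 4 libraries only.

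TGF-beta and BMP ligands are secreted dimers that bring together type I and type II receptor kinases on the cell surface. TGF-beta and activin receptors phosphorylate Smad2 and Smad3, BMP receptors phosphorylate Smad1 and Smad5, and both kinds of Smad enter the nucleus with Smad4. In the pancreas TGF-beta is known for restraining epithelial growth and for driving matrix deposition by stellate cells, and BMP signalling for inducing the Id genes, whose products block basic helix-loop-helix transcription factors.

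The level of Hhex went against the labels. In CPM, which are counts scaled to library size with TMM factors, Hhex stood at 24.9 and 17.7 in control cells and at 23.6 and 39.0 in knockout-labelled cells, so that group is named by its label throughout. The groups overlapped, with labelled-knockout replicate 1 between the controls and replicate 2 above both. Which part of the gene is deleted is not given in the labels, so reads from the remaining exons may be included. Library totals ran from 25257778 to 39582625 counts over all transcripts, where transcripts of the same gene can count the same reads. With 1 transcript per gene they ran from 18638815 to 29137636. Epithelial markers of ducts were abundant, with mean deposited RPKM (reads scaled by transcript length and depth) of 404 for Krt19, 543 for Krt7 and 169 for Epcam. Markers of other cell types that could supply these ligands were scarce. The summed level of 12 fibroblast and stellate markers was 20.7 and 11.8 CPM in control cells and 8.25 and 13.1 CPM in the other pair, and the 8 endothelial markers came to at most 13.0 CPM. The 13 myeloid markers summed to between 128 and 215 CPM, most of it Cd14, while the leukocyte gene Ptprc stood at 0.801 CPM or less. Of the 5 mesothelial markers, Msln was high and differed with the groups, at 1584 and 2013 CPM against 3139 and 4486 CPM, while Wt1, Upk3b, Lrrn4 and Gpm6a stood at 1.87 CPM or less in every library. In bulk RNA, fewer cells of a type and less RNA per cell cannot be told apart. Labelled-knockout replicate 2 was the only female library, with Xist at 304 CPM, the 3 remaining libraries lying between 0.750 and 1.75 CPM.

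No gene of either branch passed an adjusted p of 0.05 between the groups. The edgeR quasi-likelihood test was run over 20949 transcripts with Benjamini-Hochberg adjustment, and it called 32 of them, 0.153%, of which 22 were higher (0.105%) and 10 lower (0.0477%) in the libraries labelled knockout. For the 38 genes, 35 had enough counts to be tested, 0 were called and the lowest adjusted p was 0.344. The BMP ligand Bmp2, the BMP antagonist Nog and Id4 were not tested, with at most 18 counts in any library. At an unadjusted p of 0.05, 4 of the 35 passed, which is 11.4% against 7.51% of all transcripts tested. All 4 were BMP branch genes, namely Id2, Id3, Id1 and Smad6. DESeq2 gave an adjusted p for 32 of the genes and called 1, Id2, while it called 303 of 18905 transcripts, or 1.6%. On the log2(RPKM + 1) scale limma tested 29 of the genes and called 0, against 0.971% of transcripts.

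Both branches were centred near 0. The BMP branch was spread more widely, a difference that was not tested. The median log2 fold change, labelled knockout minus control, was 0.02 over the 17 tested genes of the TGF-beta branch and 0.02 over the 13 tested of the BMP branch, against -0.01 over all transcripts tested. These medians average 2 libraries on opposite sides of the controls. Relative to the control mean, the median log2 CPM of the TGF-beta branch was -0.10 in labelled-knockout replicate 1 and 0.24 in replicate 2, and that of the BMP branch was -0.15 and 0.25. Without replicate 1 the median log2 fold changes were 0.21 and 0.19, and without replicate 2 they were -0.12 and -0.20. In those fits, where the group has 1 library, edgeR called 5 and 7 genes of the set, while 7.86% and 8.69% of all transcripts were called. In the TGF-beta branch 15 of 17 log2 fold changes were under 0.5 in size, and in the BMP branch 8 of 13. For 11 of the 17 and 6 of the 13 the 95% interval lay within a 2-fold change in either direction. Groups did not overlap in CPM for 14 of the 35, or 40%, against 36.1% of all transcripts tested. Of these 14, 6 were higher and 8 lower in the libraries labelled knockout, or 17.1% and 22.9% of the 35, beside 19.1% and 17% of all transcripts.

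**Figure D1:**
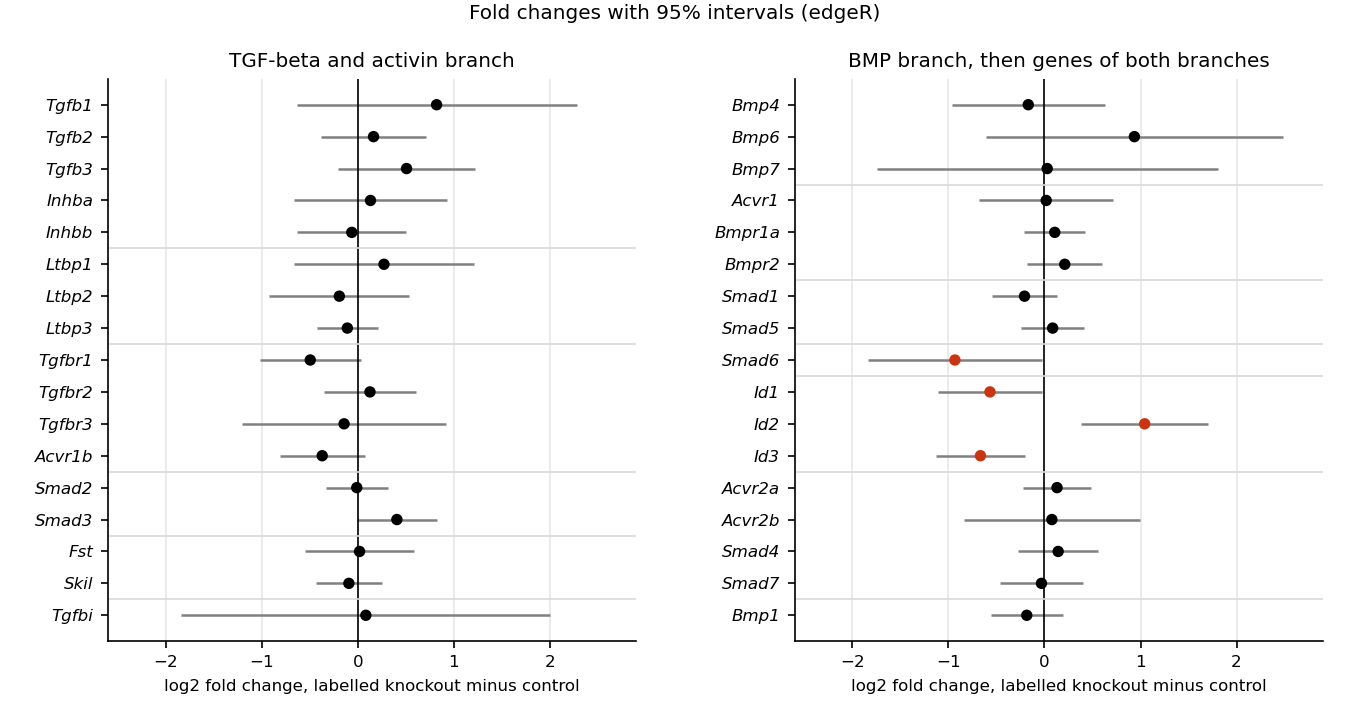
Log2 fold change (x axis, labelled knockout minus control) with its 95% interval from edgeR for the tested TGF-beta branch genes (left) and the tested BMP branch and shared genes (right). Red points have an unadjusted p of at most 0.05, and the 4 of them, Smad6, Id1, Id2 and Id3, are all in the BMP branch. Bmpr1b is left out of the plot because its interval ran from -3.19 to 2.32.

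Levels are compared between genes on the deposited RPKM scale, which accounts for transcript length. Among ligands of the TGF-beta branch, the 2 activin subunit genes Inhbb and Inhba (mean RPKM 6.83 and 5.33) and Tgfb3 (4.56) stood above Tgfb2 (1.17) and Tgfb1 (0.243). Inhbb, Inhba and Tgfb3 overlapped across libraries, while each library had less Tgfb2 than any of these 3 and less Tgfb1 than Tgfb2. Tgfb1, the form best known from platelets and immune cells, therefore was the scarcest of the 3 TGF-beta genes in these cells. It stood at 0.474 and 0.487 CPM in control cells and 0.723 and 1.00 CPM in knockout-labelled cells. The groups did not overlap, but the 95% interval of its log2 fold change of 0.82 ran from -0.63 to 2.28.

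Inhbb, which encodes the beta B subunit of activin, stood at 49.4 and 29.7 CPM in control cells and 35.0 and 41.0 CPM in knockout-labelled cells. Both values of the second group lay between the 2 control values. Tgfb3 stood at 17.4 and 16.3 CPM in control cells, at 16.2 CPM in labelled-knockout replicate 1 and at 32.0 CPM in replicate 2. Only 1 library was thus high, and the log2 fold change of 0.51 ± 0.30 (SE) had an edgeR adjusted p of 0.807. Inhba was spread within both groups, at 12.6 and 8.03 CPM and at 14.7 and 7.84 CPM. Tgfb2 overlapped between the groups as well.

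Latent TGF-beta binding proteins lie in the matrix, where some of them hold the secreted ligand until it is released. Ltbp3 was the most abundant (mean RPKM 7.70), followed by Ltbp2 (2.8) and Ltbp1 (0.242), in the same order in all 4 libraries. Ltbp3 was also among the steadiest genes of the set, at 55.9 and 54.0 CPM in control cells and 51.5 and 50.6 CPM in knockout-labelled cells. Its groups did not overlap, and the 95% interval of its log2 fold change of -0.11 ran from -0.43 to 0.21. Ltbp2 stood at 27.9 and 24.5 CPM in control cells and 15.1 and 31.1 CPM in the other pair, so the 2 libraries labelled knockout lay on either side of the controls.

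The receptors were led by Tgfbr1, the type I receptor kinase for TGF-beta, at a mean RPKM of 40.7. Its partner Tgfbr2, the type II receptor, had a mean RPKM of 11.2, the activin type I receptor Acvr1b 8.68 and the co-receptor Tgfbr3, betaglycan, 0.191. In every library Tgfbr1 lay above Tgfbr2 and Acvr1b. Tgfbr1 stood at 363 and 354 CPM in control cells and 309 and 199.9 CPM in knockout-labelled cells. Both of the latter were lower, and replicate 2 was farther from the controls than replicate 1. Its log2 fold change was -0.49 ± 0.23 (SE; edgeR adjusted p = 0.695), with a 95% interval from -1.02 to 0.03. Without labelled-knockout replicate 1 it was -0.87, and without replicate 2 it was -0.23, fits in which that group has 1 library.

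Acvr1b had the same arrangement of libraries, at 43.8 and 41.4 CPM in control cells and 38.5 and 27.4 CPM in the other pair. Its log2 fold change was -0.37 ± 0.19 (SE; edgeR adjusted p = 0.744). Tgfbr2 was highest in labelled-knockout replicate 2, at 88.1 CPM, the 3 remaining libraries lying between 61.3 and 74.3 CPM, and overlapped between the groups. Tgfbr3 was low but countable, at 1.07 to 1.90 CPM, and overlapped between the groups.

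Smad3 was the more abundant of the 2 Smads that TGF-beta and activin receptors phosphorylate, with a mean RPKM of 26.5 against 5.93 for Smad2. Smad3 stood at 139 and 167 CPM in control cells and 224 and 182 CPM in knockout-labelled cells. The groups did not overlap, and the log2 fold change of 0.41 ± 0.18 (SE) had an edgeR adjusted p of 0.671. Without labelled-knockout replicate 2 it was 0.53, again with 1 library standing for the group. It was 0.22 without labelled-knockout replicate 1 and 0.28 without control replicate 1. Smad2 stood at 66.5 and 71.6 CPM in control cells and 70.1 and 67.0 CPM in the other pair, with a 95% interval of its log2 fold change from -0.33 to 0.31.

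Skil and Fst, which restrain the branch, had log2 fold changes of -0.09 and 0.02. Skil, the SnoN corepressor of Smad complexes and itself a TGF-beta target, stood at 179 and 195 CPM in control cells and 174 and 178 CPM in knockout-labelled cells. The groups did not overlap, and its 95% interval ran from -0.44 to 0.25 in log2. Fst, the follistatin that traps activin, lay between 5.13 and 6.16 CPM in all 4 libraries. Tgfbi, a matrix protein named for its induction by TGF-beta, was barely detected, at 0.364 and 0.324 CPM in control cells and 0.295 and 0.452 CPM in the other pair, and its interval from -1.84 to 2.01 shows how little the counts can resolve.

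**Figure D2:**
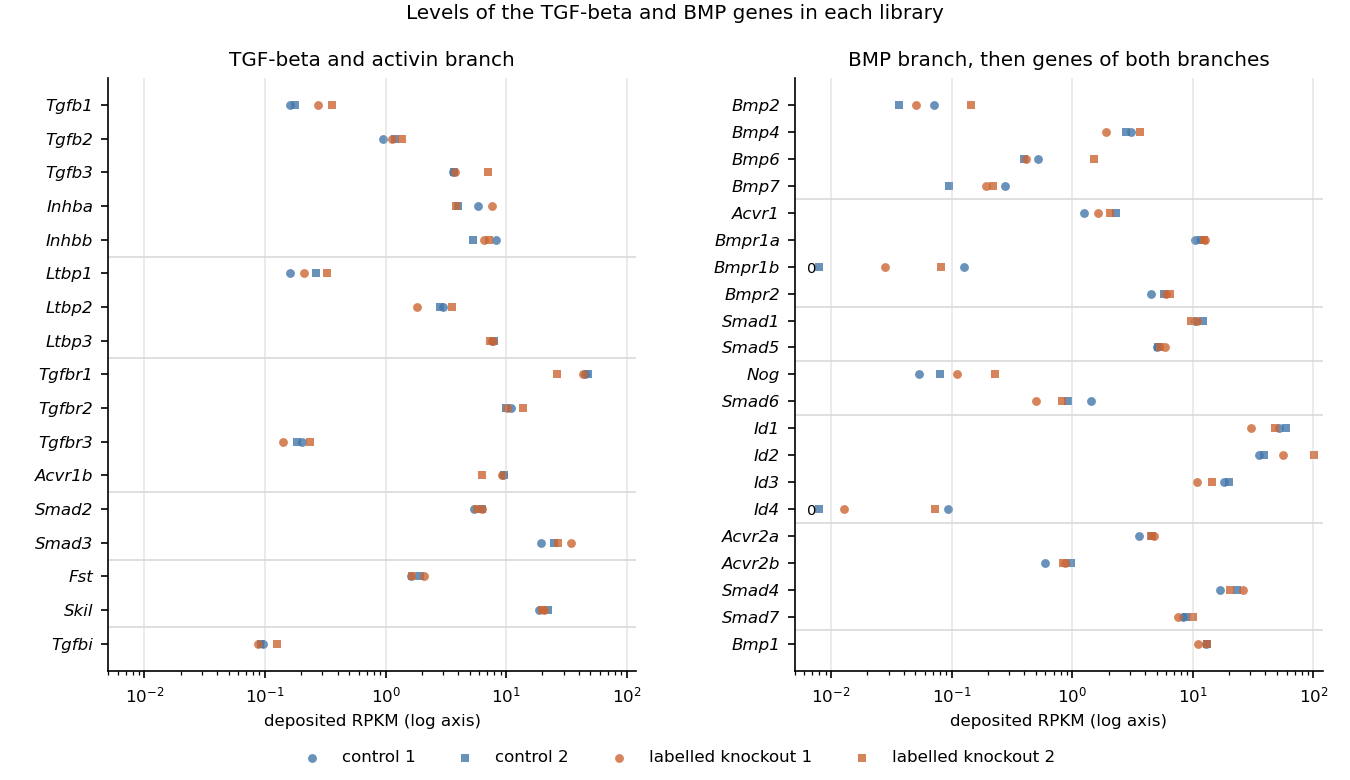
Deposited RPKM (x axis, log scale) of each gene in each of the 4 libraries, with the TGF-beta and activin branch on the left and the BMP branch followed by the shared genes on the right; grey lines part the roles, and a value of 0 is drawn at the left edge. Tgfbr1, Smad3, Skil, Smad4 and the 3 genes Id1, Id2 and Id3 are the most abundant. Tgfbr3, Tgfbi, Bmp2, Bmp7, Nog, Bmpr1b and Id4 lie under 0.3 RPKM in all 4 libraries.

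On the BMP side the ligands were low. Bmp4 had the highest mean RPKM (2.87), followed by Bmp6 (0.709), Bmp7 (0.197) and Bmp2 (0.0760). Bmp4 stood at 8.71 and 7.34 CPM in control cells, at 4.8 CPM in labelled-knockout replicate 1 and at 9.68 CPM in replicate 2. These last 2 values enclosed the controls. Its log2 fold change of -0.17 became 0.24 without labelled-knockout replicate 1 and -0.77 without replicate 2, fits in which that group has 1 library. Bmp6 was highest in labelled-knockout replicate 2, at 4.81 CPM, the 3 remaining libraries lying between 1.26 and 1.79 CPM. The same library held the highest Tgfb3, Bmp4 and Id2.

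BMP receptors were led by Bmpr1a, a type I receptor with a mean RPKM of 11.8. Bmpr1a stood at 80.6 and 84.3 CPM in control cells and 87.3 and 90.3 CPM in knockout-labelled cells. Its groups did not overlap, and the 95% interval of its log2 fold change of 0.11 ran from -0.21 to 0.43. Bmpr2, the type II receptor, had a mean RPKM of 5.71 and a log2 fold change of 0.21, and Acvr1, a further type I receptor, a mean RPKM of 1.81 and a log2 fold change of 0.02. Bmpr1b was represented by 26, 0, 7 and 18 counts, so neither its level nor its change can be read.

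The BMP Smads also differed little in level between the groups. Neither overlapped, with Smad1 lower and Smad5 higher in both libraries labelled knockout. Smad1 (mean RPKM 10.8) stood at 44.6 and 48.5 CPM in control cells and 41.8 and 38.7 CPM in knockout-labelled cells, a log2 fold change of -0.21 with a 95% interval from -0.54 to 0.13. Smad5 (mean RPKM 5.36) lay between 44.2 and 49.5 CPM throughout. Of the genes that serve both branches, the common partner Smad4 stood at 79.8 and 101 CPM and at 109.5 and 89.9 CPM, and the inhibitory Smad7 at 52.2 and 50.9 CPM and at 42.4 and 58.7 CPM. The type II receptors Acvr2a and Acvr2b had log2 fold changes of 0.13 and 0.08. Bmp1, which despite its name is a procollagen protease and no BMP ligand, stood at 81.3 and 76.6 CPM in control cells and 61.9 and 77.1 CPM in the other pair. For all 5 of these genes the 95% interval lay within a 2-fold change.

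The 3 abundant Id genes, which are immediate targets of BMP Smads, did not share a direction. Id2 was higher in both libraries labelled knockout, while Id1 and Id3 were lower in both. In mean RPKM Id2 (57.9) and Id1 (47.4) were the 2 most abundant genes of the whole set, and Id3 stood at 15.8. This order did not hold in every library. Tgfbr1 lay above Id2 in both controls, at 45.4 and 47.8 RPKM against 35.1 and 38.6 RPKM. It lay above Id1 in labelled-knockout replicate 1, at 43.2 against 30.5 RPKM. None of the 3 Id genes passed the test over all transcripts.

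Id2 stood at 63.0 and 64.2 CPM in control cells and 90.0 and 172 CPM in knockout-labelled cells. The controls were nearly equal, and replicate 2 was farther from them than replicate 1. The mean was 63.6 ± 0.893 CPM (SD, n = 2) against 131 ± 58.2 CPM (SD, n = 2). This 2.06-fold difference, a log2 fold change of 1.04 ± 0.28 (SE) with a 95% interval from 0.38 to 1.71, had an edgeR adjusted p of 0.344. DESeq2, run on the same counts, gave Id2 an adjusted p of 0.0082, the only call among the 32 genes of the set with one, where 1.6% of all transcripts were called. The log2 fold change was 1.41 without labelled-knockout replicate 1 and 0.48 without the female replicate 2. It was 1.03 without control replicate 1 and 1.09 without control replicate 2. Each of these fits leaves 1 library in a group.

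Id1 stood at 66.7 and 70.7 CPM in control cells and 35.1 and 57.8 CPM in knockout-labelled cells. Here it was replicate 1 that lay farther from the controls. The log2 fold change of -0.57 ± 0.23 (SE) had an edgeR adjusted p of 0.626 and a 95% interval from -1.11 to -0.03. Without labelled-knockout replicate 2 it was -0.99, and without replicate 1 it was -0.28. It was -0.61 without control replicate 1 and -0.49 without control replicate 2. Each of these fits leaves 1 library in a group.

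Id3 repeated the order of Id1, at 24.5 and 24.8 CPM in control cells and 13.0 and 18.2 CPM in knockout-labelled cells. Its log2 fold change was -0.67 ± 0.20 (SE), with a 95% interval from -1.13 to -0.20 and an edgeR adjusted p of 0.412. Without labelled-knockout replicate 2 it was -0.94, and without replicate 1 it was -0.47. It was -0.68 without control replicate 1 and -0.62 without control replicate 2, again with 1 library left in a group.

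Smad6, an inhibitory Smad that acts mainly on BMP receptors and is a BMP target itself, stood at 5.98 and 3.61 CPM in control cells and 1.88 and 3.26 CPM in knockout-labelled cells. The groups did not overlap, but the nearest values, 3.61 and 3.26 CPM, were close. Its log2 fold change was -0.93 ± 0.39 (SE; edgeR adjusted p = 0.638), with a 95% interval from -1.84 to -0.03. Without labelled-knockout replicate 2 it was -1.39, and without replicate 1 it was -0.60. It was -0.51 without control replicate 1 and -1.20 without control replicate 2. Each of these fits leaves 1 library in a group.

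**Figure D3:**
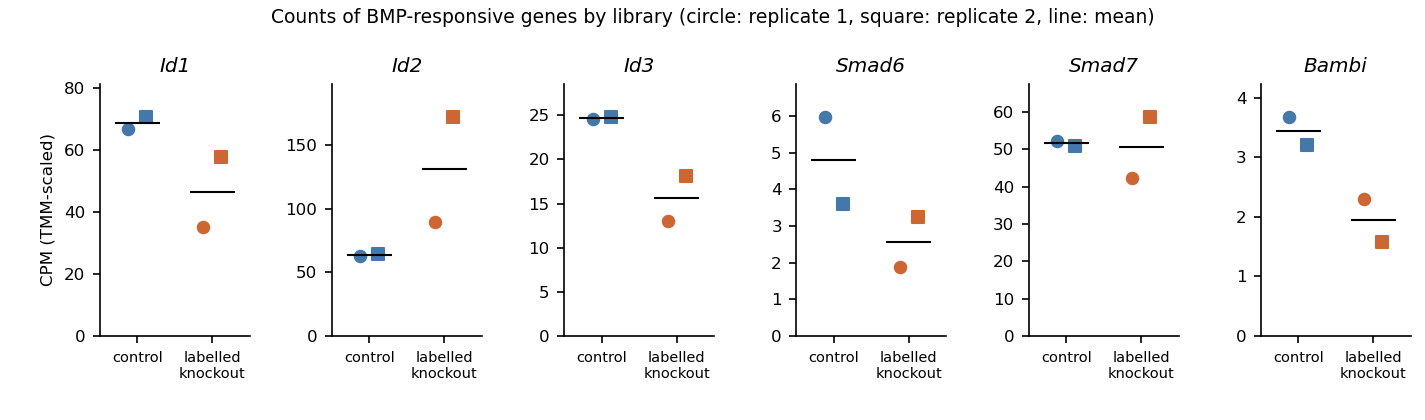
CPM by library (y axis from 0, a scale of its own for each gene) for the Id genes, both inhibitory Smads and Bambi, with controls in blue and libraries labelled knockout in orange. Id1, Id3, Smad6 and Bambi are lower in both libraries labelled knockout and Id2 is higher in both, while the values of Smad7 lie on either side of the controls.

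The promoters of Id2, Id3 and Smad6 are shown because these genes stood on opposite sides of the controls. Each runs from 250 bases before to 30 bases after the transcription start, 5′ to 3′ on the strand of the gene. The source was RefSeq's table of assembly GRCm38.p6, which held windows for 26 of the 38 genes. Id1, which also had an edgeR unadjusted p under 0.05, had no window there. Capitals mark matches on either strand to 3 motifs bound by Smads, CAGAC (the Smad box), the palindrome GTCTAGAC and the GC-rich GGCGCC. None of the matches overlap.
Id2 promoter, chr12:25096063-25096342, minus strand: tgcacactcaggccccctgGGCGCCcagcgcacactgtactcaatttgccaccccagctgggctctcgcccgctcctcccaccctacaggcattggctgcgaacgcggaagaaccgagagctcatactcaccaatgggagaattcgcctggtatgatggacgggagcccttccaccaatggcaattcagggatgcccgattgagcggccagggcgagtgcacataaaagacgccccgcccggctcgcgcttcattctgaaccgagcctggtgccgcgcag
Id3 promoter, chr4:136143572-136143851, plus strand: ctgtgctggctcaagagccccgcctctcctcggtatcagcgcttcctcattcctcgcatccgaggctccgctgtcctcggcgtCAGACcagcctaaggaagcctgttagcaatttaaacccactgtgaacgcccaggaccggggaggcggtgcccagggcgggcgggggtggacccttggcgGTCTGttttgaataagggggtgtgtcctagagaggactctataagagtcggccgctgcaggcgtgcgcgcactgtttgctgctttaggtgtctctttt
Smad6 promoter, chr9:64022030-64022309, minus strand: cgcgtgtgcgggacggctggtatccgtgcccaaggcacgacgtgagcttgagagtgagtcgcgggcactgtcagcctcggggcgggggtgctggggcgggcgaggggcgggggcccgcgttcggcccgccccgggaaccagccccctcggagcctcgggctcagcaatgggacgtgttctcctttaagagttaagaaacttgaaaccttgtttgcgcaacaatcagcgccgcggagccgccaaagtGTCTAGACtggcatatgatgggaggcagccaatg

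The window of Id2 held GGCGCC once, starting 231 bases before the start. In the window of Id3, CAGAC occurred 2 times, with matches beginning 167 and 68 bases before the start. Smad6 held the palindrome GTCTAGAC across its start, from 4 bases before it. Over all 32851 windows of this length in the table, 46.8% held CAGAC, 10.9% held GGCGCC and 0.192% held GTCTAGAC. Over the 32 windows of the 26 genes the shares were 46.9%, 28.1% and 3.12%, the last being Smad6 alone. A match is a description of these letters and does not show that a Smad binds there.

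Other genes of the pathway were read from 4 lists, and edgeR called 0 in each. Of the other TGF-beta and activin genes, 35 of 45 were tested, 4 had an unadjusted p of at most 0.05 with higher and 3 with lower values in the libraries labelled knockout, and the median log2 fold change was -0.08. For the other BMP genes, where 19 of 33 were tested, those counts were 3 and 1 and the median was 0.01. Among TGF-beta target genes 28 of 29 were tested, with counts of 4 and 3 and a median of -0.03. Only 7 of the 15 BMP target genes outside the Id family had enough counts, with 0 and 1 and a median of -0.81. That median is the value of Bambi, and 6 of the 7 had a negative log2 fold change. Runx2, the tested target with the most counts, overlapped between the groups at a log2 fold change of -0.18. Most lists of markers of other cell types, which are largely scarce genes, also had negative medians. They were -0.62 over 10 fibroblast and stellate, -0.63 over 9 myeloid and -0.46 over 7 endothelial genes tested. Medians were -0.55 over 3 lymphocyte, -0.76 over 1 endocrine and -0.16 over 6 acinar genes tested, but 0.35 over 4 mesothelial genes. The part of such cells was not tested. Over all transcripts tested, 4.7% were higher and 2.81% lower at that p, with a median of -0.01. Some genes, such as Fstl1 and Bambi, stand in 2 of these lists. DESeq2 (1.6% of all transcripts called) and limma on log2(RPKM + 1) (0.971%) each called a few of these genes. DESeq2 called Fstl1, Gdf15 and Tagln lower and Htra1 and Klf10 higher, limma called Fstl1 and Il11 lower and Htra1 higher, and neither called a BMP target.

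Secreted regulators had the 3 largest differences among the other BMP genes tested. Htra1, a serine protease that binds and restrains BMP and TGF-beta ligands, stood at 49.4 and 69.4 CPM in control cells and 219 and 139.8 CPM in knockout-labelled cells. Both knockout-labelled values lay above both control values, and the log2 fold change of 1.59 ± 0.26 (SE) had an edgeR adjusted p of 0.0971. Bmp3, a BMP family member that opposes BMP signalling, stood at 0.947 and 1.5 CPM and at 4.34 and 2.84 CPM (edgeR adjusted p = 0.332). Fstl1, a secreted follistatin-like glycoprotein, differed in the other direction, with 62.5 and 44.3 CPM in control cells against 25.9 and 15.4 (edgeR adjusted p = 0.176).

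Gdf15, a distant TGF-beta family member induced by cell stress, stood at 37.3 and 23.7 CPM in control cells and 16 and 7.94 CPM in knockout-labelled cells (edgeR adjusted p = 0.309). Nedd4l, a ubiquitin ligase that turns over activated Smad2 and Smad3, stood at 46.3 and 54.5 CPM and at 73.1 and 75.0 CPM (edgeR adjusted p = 0.338). In both cases the groups did not overlap.

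TGF-beta target genes lay on both sides of the controls. Klf10, also called TGF-beta inducible early gene, stood at 23.4 and 28.7 CPM in control cells and 43.1 and 48.1 CPM in knockout-labelled cells, a log2 fold change of 0.81 ± 0.17 (SE; edgeR adjusted p = 0.185). Il11, a cytokine gene that TGF-beta induces in many cells, was lower in both, at 80.7 and 58.6 CPM against 24.2 and 6.06 CPM. Its log2 fold change of -2.19 ± 0.51 (SE) was the lowest in these lists and had an edgeR adjusted p of 0.248. Tagln, which encodes the actin-binding protein transgelin, stood at 339 and 513 CPM in control cells and 268 and 163 CPM in the other pair (edgeR adjusted p = 0.411). Summed fibroblast and stellate markers, some of which respond to TGF-beta too, were at most 20.7 CPM in any library and overlapped between the groups. Of the 10 such markers tested, 9 had a negative log2 fold change and 0 were called by edgeR, with 0 at an unadjusted p of 0.05 or less. The part of such cells in these values was not tested.

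BMP targets beyond the Id genes were scarce in these cells. Bambi, a decoy receptor without a kinase that BMP induces, stood at 3.68 and 3.20 CPM in control cells and 2.30 and 1.58 CPM in knockout-labelled cells (edgeR adjusted p = 0.644). Hey1, a repressor shared with Notch signalling, stood at 2.11 and 1.54 CPM and at 0.563 and 1.39 CPM (edgeR adjusted p = 0.769). Msx1, a homeobox gene, differed in the other direction from 0.328 and 0.162 CPM to 0.402 and 0.774 CPM (edgeR adjusted p = 0.869), which is at most 24 counts in a library.

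**Figure D4:**
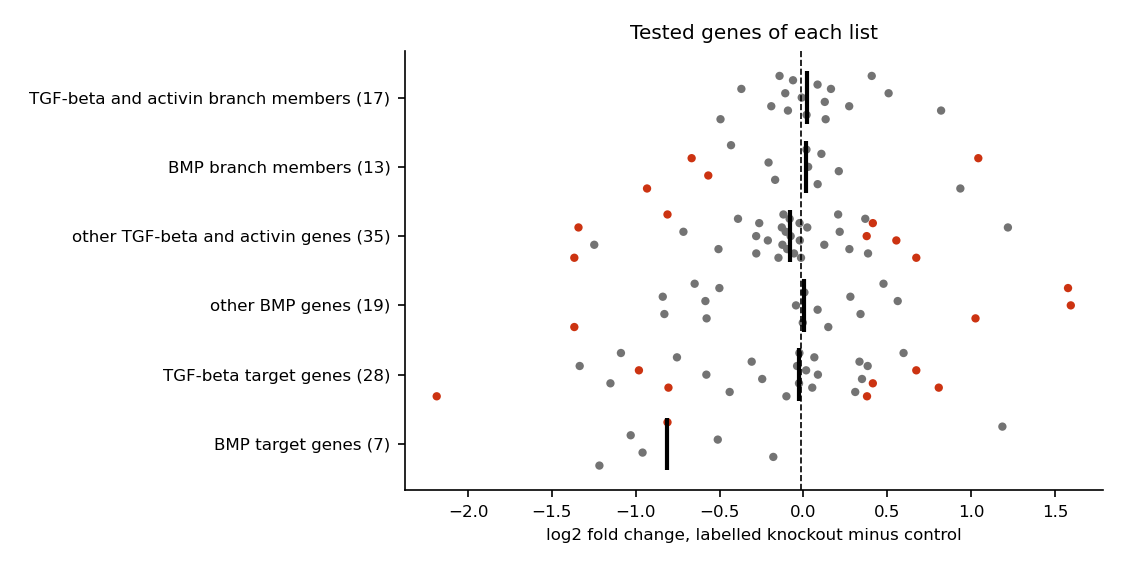
Log2 fold change (x axis, labelled knockout minus control) of every tested gene in each list, with the number tested in parentheses; the thick line is the list's median, the dashed line the median over all transcripts, and red points have an unadjusted p of at most 0.05. The medians of the 2 branches lie at 0.02, and that of the 7 tested BMP targets at -0.81, which is the value of Bambi.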

How the data were processed

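The authors deposited raw counts per transcript and RPKM per transcript for 2 control libraries and 2 labelled knockout, per the file headers. The submitters' processing notes name mm9 and edgeR; the aligner, the counting tool and its use of strand are not given in the sources used here. A gene was read from its transcript with the highest mean count, 1 of 28644 transcripts in the tables. Counts were filtered with filterByExpr (minimum count 10, minimum total 15), scaled with TMM and tested with edgeR 4.0.16 in R 4.3.3 (quasi-likelihood, 2 residual degrees of freedom, no covariate), leaving 20949 transcripts. CPM uses TMM-scaled library totals. Alternatives used DESeq2 1.42.0, and limma 3.58.1 on log2(RPKM + 1) or log2(RPKM + 0.1) of transcripts at 0.5 RPKM or more in 2 libraries. Replicates were numbered in accession order. Scripts were tested on simulated data.

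The genes and lists were chosen with earlier results of these data known. Values in every library were given for genes with an unadjusted p under 0.05, for the most abundant gene of each role and, for other lists, for the 3 genes with the smallest p. Further genes named with such values (Tgfb1, Tgfb3, Inhba, Ltbp2, Acvr1b, Tgfbi, Smad2, Bmpr1b, Smad7 and Bmp1 among them) were chosen after their values were seen.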

Additional observations from a re-analysis of the deposited data

How the results depend on the processing

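With edgeR, 22 transcripts were called higher and 10 lower in the libraries labelled knockout. Higher calls came to 0 with library totals as the only scaling, 0 with 1 transcript per gene, 11 with counts summed per symbol, 207 with DESeq2, 101 with limma on log2(RPKM + 1) and 87 on log2(RPKM + 0.1). Lower calls came to 5 with library totals, 6 with no filter, 2 with 1 transcript per gene, 3 with summed counts, 96 with DESeq2, and 58 and 51 with limma. With 1 library left out, higher calls ran from 0 to 1181 and lower calls from 0 to 860; a lone library was assumed to vary as the other group's 2 did, and most calls came without a labelled-knockout library (1742 without replicate 1, 1911 without replicate 2). Among the 38 genes, calls with all libraries were 0 higher and 0 lower, except for 1 higher with DESeq2 (Id2). Calls in the set also changed with 1 library left out, in fits where a group has 1 library. Branch medians ran from -0.059 to 0.058 (TGF-beta) and -0.055 to 0.11 (BMP) with all libraries, with both turning negative under library totals and 1 transcript per gene; with 1 library left out they ran from -0.12 to 0.21 and from -0.20 to 0.19. Some genes changed sign, and not only genes near 0. With 1 library left out, Bmp6, at 0.94 with all libraries, ran from -0.30 to 1.62, and Tgfb3, at 0.51, from -0.074 to 0.89. Inhbb, at -0.06, was 0.042 and 0.051 with the 2 limma settings and -0.35 to 0.35 with 1 library left out, and in the same fits Skil ran from -0.16 to 0.0072, Bmp4 from -0.77 to 0.24 and Smad4 from -0.031 to 0.36. The causes were not tested. No paired analysis was possible because the titles number the libraries 1 to 4 across both groups. Depth leaves Bmp2, Nog, Id4, Bmpr1b and Tgfbi too thinly counted to read a change.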
